A study of Mus musculus with 4 samples.

Results

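The genes described here encode the ligands and receptors of axon guidance, the system of cues by which a growing nerve fibre finds its target. They were taken from an RNA-seq table of sorted inner-ear cells by symbol, as every row that names an Eph receptor, an ephrin, a semaphorin of classes 3 to 7, a plexin, a neuropilin, a netrin, an Unc5 receptor, Dcc, a Slit or a Robo. The rule gave 61 of the 12814 genes of the table. Of these, *Unc50* only shares its first letters with the netrin receptors and is no guidance molecule. It was kept in the counts, and all counts of genes past 3-fold between populations were the same without it. The other 60 comprise 32 ligands and 28 receptors. Other genes that fit the rule by name, among them *Plxnd1*, *Slit1* and *Robo3*, were not analysed here.

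The mice were newborns of the *Atoh1/nGFP* genotype with a C57BL/6 background, in which a nuclear green fluorescent protein driven by an *Atoh1* enhancer marks the hair cells (HCs), the mechanosensory cells of the ear. Cochlear and vestibular epithelia were dissociated and sorted by flow cytometry into HCs, positive for the fluorescent protein and for the epithelial surface protein CD326, and epithelial non-sensory cells (ENSCs), positive for CD326 alone (the ENHCs of the study). The inner ears of several mice were pooled for a sort, and all 4 populations carried the transgene. Each of the 4 populations (cochlear HCs, cochlear ENSCs, vestibular HCs and vestibular ENSCs) had 1 column in the table, called its library here. Whether a column holds a single library or a pool of replicates is not given in the sources used here. No replicate error can be given for any value below, and populations could not be tested against each other.

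As background, guidance ligands are secreted or held on a membrane, and they attract or repel a fibre according to the receptors that it carries. Slits signal through Robo receptors, netrins through Dcc and the Unc5 receptors, semaphorins through plexins with or without a neuropilin, and ephrins through the Eph receptor kinases. In the ear these molecules are best known from the spiral and vestibular ganglion neurons, whose fibres have to reach HCs through the surrounding epithelium. Several of them also act without any axon, in the shaping of epithelia, and netrin-1 in the fusion of the semicircular canals is the classical case.

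The unit was a quantile-normalized signal per gene, that is, reads per gene forced to the same distribution in every library, with a floor of 20. It is not divided by gene length, and levels are therefore compared between genes below only per kilobase of exon. The lowest signals of a library were tied and did not rank genes. This tied range ended at 22.75 in ENSCs and 24.25 in HCs of the cochlea and at 30.5 in vestibular HCs, and it was only the floor of 20 in vestibular ENSCs. It held 6, 13, 24 and 3 of the 61 guidance genes in that order, and 1911, 2142, 2695 and 1412 of the 12814 genes of the table. Of the 61 genes 34 were above it in every library. A fold against a signal inside the range is given as a lower bound computed against its top ("at least"). The true sequencing depth is unknown, and a difference in signal cannot tell fewer cells of a kind from less RNA per cell. Exons of 14 of the genes (*Efna3*, *Efna4*, *Efna5*, *Epha1*, *Ephb1*, *Ephb4*, *Nrp1*, *Ntn1*, *Ntn3*, *Ntng2*, *Plxna1*, *Plxna4*, *Plxnb1* and *Unc5a*) overlap another annotated gene, and as it is not known whether strand was used in counting, their signals are less certain.

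All 10 known HC genes examined were at least 3-fold higher in HCs than in ENSCs in both organs. The 4 epithelial genes summed to 7190.5 in HCs and 8906.5 in ENSCs of the cochlea, and to 1551 and 18532 in those of the vestibular system. In the cochlea *Cdh1* carried this sum (6003 in HCs and 4852.75 in ENSCs), while the other 3 (*Epcam*, *Krt8* and *Krt18*) were at least 3-fold lower in HCs, and in the vestibular system all 4 were. Markers of other cells that a sort can carry over were also measured. The summed signal of 7 genes of periotic mesenchyme was 1047.75 in cochlear HCs, 17264.25 in cochlear ENSCs, 257.5 in vestibular HCs and 2635 in vestibular ENSCs. In the cochlea *Tbx18* stood at 20, the floor, and most of the sum came from *Lum* and *Dcn*, with 12731.25 and 1828.25 in ENSCs. Over 6 glial genes it was 1025 in HCs and 2811 in ENSCs of the cochlea and 604.5 and 3988.5 in those of the vestibular system, and HCs were lower by 3-fold or more for 5 of these genes (cochlea) and 4 (vestibular system). Of 8 endothelial genes only *Kdr* could be analysed, and it had 1461.75 in vestibular ENSCs and at most 29.75 elsewhere. Neuronal genes, 5 in number, summed to 4698.25 in HCs and 326.25 in ENSCs of the cochlea and to 5261.25 and 103 in those of the vestibular system, with *Nefl* at 2380.75 and 2470 and *Nefm* at 1995.25 and 2121.25 in the HCs. By 3-fold or more 2 of the 5 were higher in cochlear HCs and 3 in vestibular HCs, whereas *Stmn2* (30.75 in HCs, 81.5 in ENSCs) and *Ntrk3* (20 and 25.75) were lower in cochlear HCs. The macrophage gene *Cd68* did not exceed 24.75, and no melanocyte gene could be analysed. Mesenchymal and glial signal thus moved in the same direction as the many guidance genes that were higher in ENSCs. Together with those highest in vestibular ENSCs moved *Kdr* and 5 other markers at least 3-fold above every other library there, *Col1a1* (512.25), *Col3a1* (547), *Sox10* (1183), *Krt8* (1524) and *Krt18* (6188.75). Their part in the results was not tested.

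Guidance genes were mostly lower in HCs than in ENSCs of the same organ. In the cochlea 18 of the 61 genes (29.5%) were lower in HCs than in ENSCs by 3-fold or more, against 9.20% of all genes, and 6 (9.84%) were at least 3-fold higher, against 8.39% of all genes. In the vestibular system 23 (37.7%) were at least 3-fold lower, against 14.3% of all genes, and 4 (6.56%) were at least 3-fold higher, against 13.8% of all genes. The median log2 ratio of HC to ENSC signal over the 61 genes was -0.71 for the cochlea and -1.04 for the vestibular system, where the medians over all genes were 0 and -0.0045. In both organs HCs were lower by 3-fold or more for 12 genes (19.7% of the guidance genes, against 4.66% of all genes), namely *Efna1*, *Efnb3*, *Ephb2*, *Ephb4*, *Nrp1*, *Ntn1*, *Ntng1*, *Sema3c*, *Sema4d*, *Slit2*, *Slit3* and *Unc5d*. Only *Robo2* was at least 3-fold higher in HCs of both organs (1.64% of the guidance genes, against 4.99% of all genes). Counting either organ, 29 genes were lower in HCs by this measure (against 18.9% of all genes) and 9 higher (against 17.1%). At any size, 37 genes were lower in HCs of both organs (against 31.9% of all genes) and 6 were higher (against 32.0%). Of the 12 genes, *Efna1* in the cochlea and *Nrp1* and *Ntng1* in the vestibular system were under 3-fold with the tied ranges set to their top. Raising the floor to 50 left 10 of the 18 genes that were lower in cochlear HCs (with 6.29% of all genes), 18 of the 23 that were lower in vestibular HCs (with 10.6% of all genes) and 5 of the 12 that were lower in both (with 3.32% of all genes), namely *Ephb2*, *Sema3c*, *Sema4d*, *Slit2* and *Slit3*. The same 5 were left with a pseudocount of 20. After correction for trends on length and GC content 11 genes were lower in both organs (with 4.23% of all genes), 9 of them among the 12, as *Efna1*, *Efnb3* and *Sema4d* were lost and *Epha5* and *Epha7* gained.

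**Figure D1:**
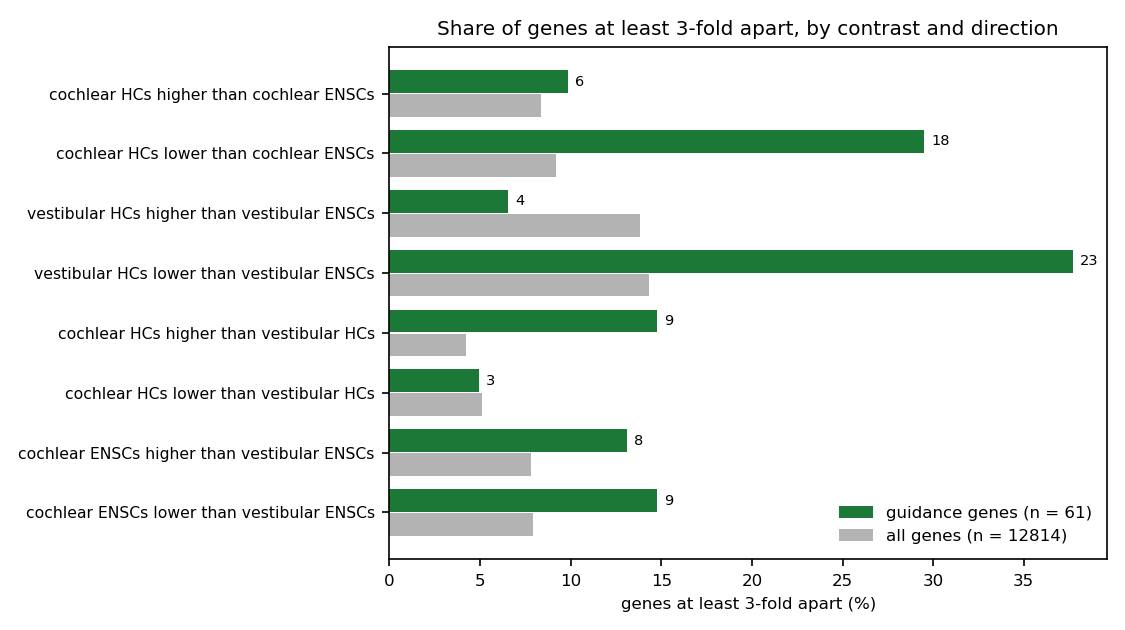
Bars give the percentage of the 61 guidance genes (green, number of genes beside the bar) and of all 12814 genes (grey) that were at least 3-fold apart, for each contrast and direction. The green bars are longest for genes lower in HCs than in ENSCs, at 29.5% for the cochlea and 37.7% for the vestibular system, against 9.20% and 14.3% of all genes.

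Ligands and receptors were both more often lower than higher in HCs. Of the 32 ligands 11 were at least 3-fold lower and 4 at least 3-fold higher in cochlear HCs, and 12 and 2 in vestibular HCs. Of the 28 receptors 7 were lower and 2 higher in cochlear HCs, and 11 and 2 in vestibular HCs. The shares over all genes were 9.20% lower and 8.39% higher for the cochlea, and 14.3% and 13.8% for the vestibular system, so that the numbers of higher ligands and receptors lay near or below the background. Their median log2 ratios were -0.94 (ligands) and -0.54 (receptors) for the cochlea, and -1.03 and -1.26 for the vestibular system.

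**Figure D2:**
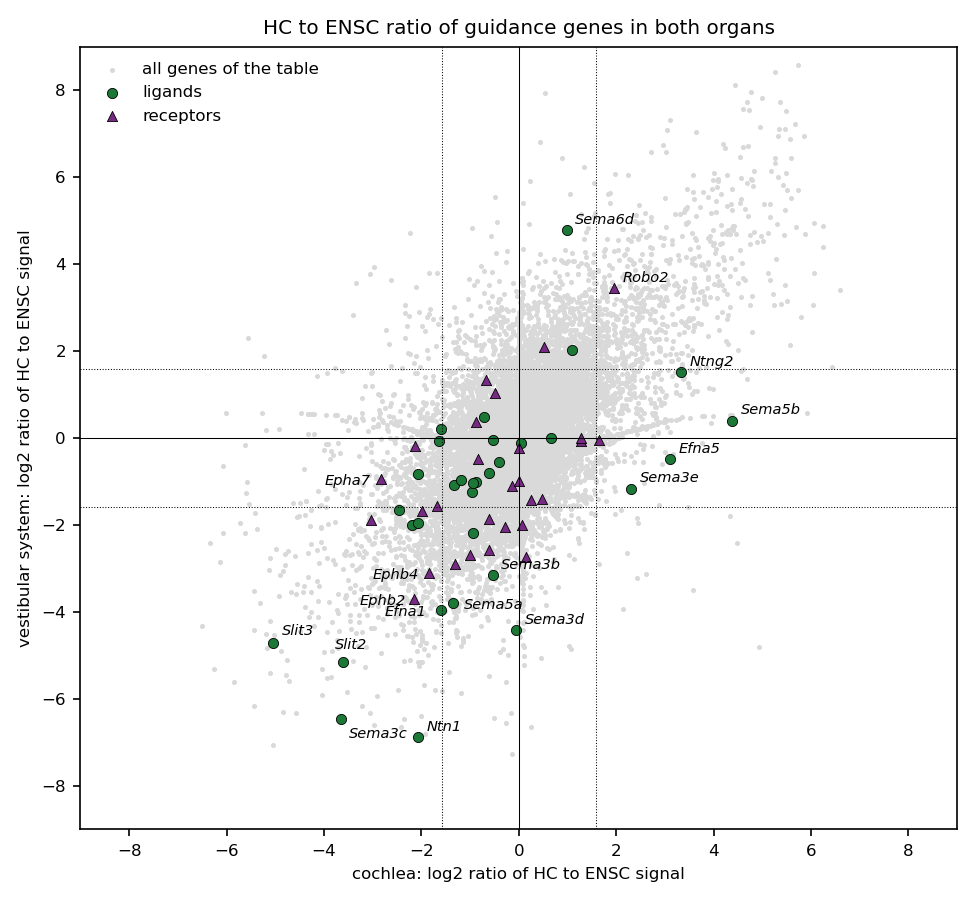
Each point is a gene, with the log2 ratio of HC to ENSC signal in the cochlea on the horizontal axis and in the vestibular system on the vertical axis; dotted lines mark 3-fold, grey points all genes, circles ligands and triangles receptors. *Slit2*, *Slit3*, *Sema3c* and *Ntn1* lie in the lower left, *Robo2* alone among guidance genes lies past both upper thresholds, and *Sema5b*, *Efna5* and *Sema3e* lie to the right in the cochlea and near or below 0 on the vestibular axis.

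The guidance genes also varied more across the 4 populations than genes did in general. The median fold between the highest and the lowest library was 5.10 over the 61 genes and 2.825 over all genes, with a median highest signal of 362 and 240.5, respectively. Their highest signal fell in vestibular ENSCs for 27 genes (44.3%, against 33.3% of all genes), in cochlear ENSCs for 21 (34.4%, against 21.5%), in cochlear HCs for 10 (16.4%, against 23.8%) and in vestibular HCs for 3 (4.92%, against 21.4% of all genes). At least 3-fold above each of the other 3 libraries were 6 genes in vestibular ENSCs (*Efna1*, *Epha2*, *Ntn1*, *Plxna4*, *Plxnb2* and *Sema3b*, against 5.06% of all genes), where *Kdr* and the 5 markers named with it were highest as well, 3 in cochlear HCs (*Ntng2*, *Robo2* and *Sema5b*, against 1.47%), 3 in cochlear ENSCs (*Epha3*, *Epha7* and *Ntn4*, against 1.89%) and 1 in vestibular HCs (*Sema6d*, against 2.15%). Past 3-fold in at least 1 of the 4 contrasts were 43 genes (70.5%, against 42.1% of all genes), and 41 of these reached a signal of 100 and are described by role below.

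**Figure D3:**
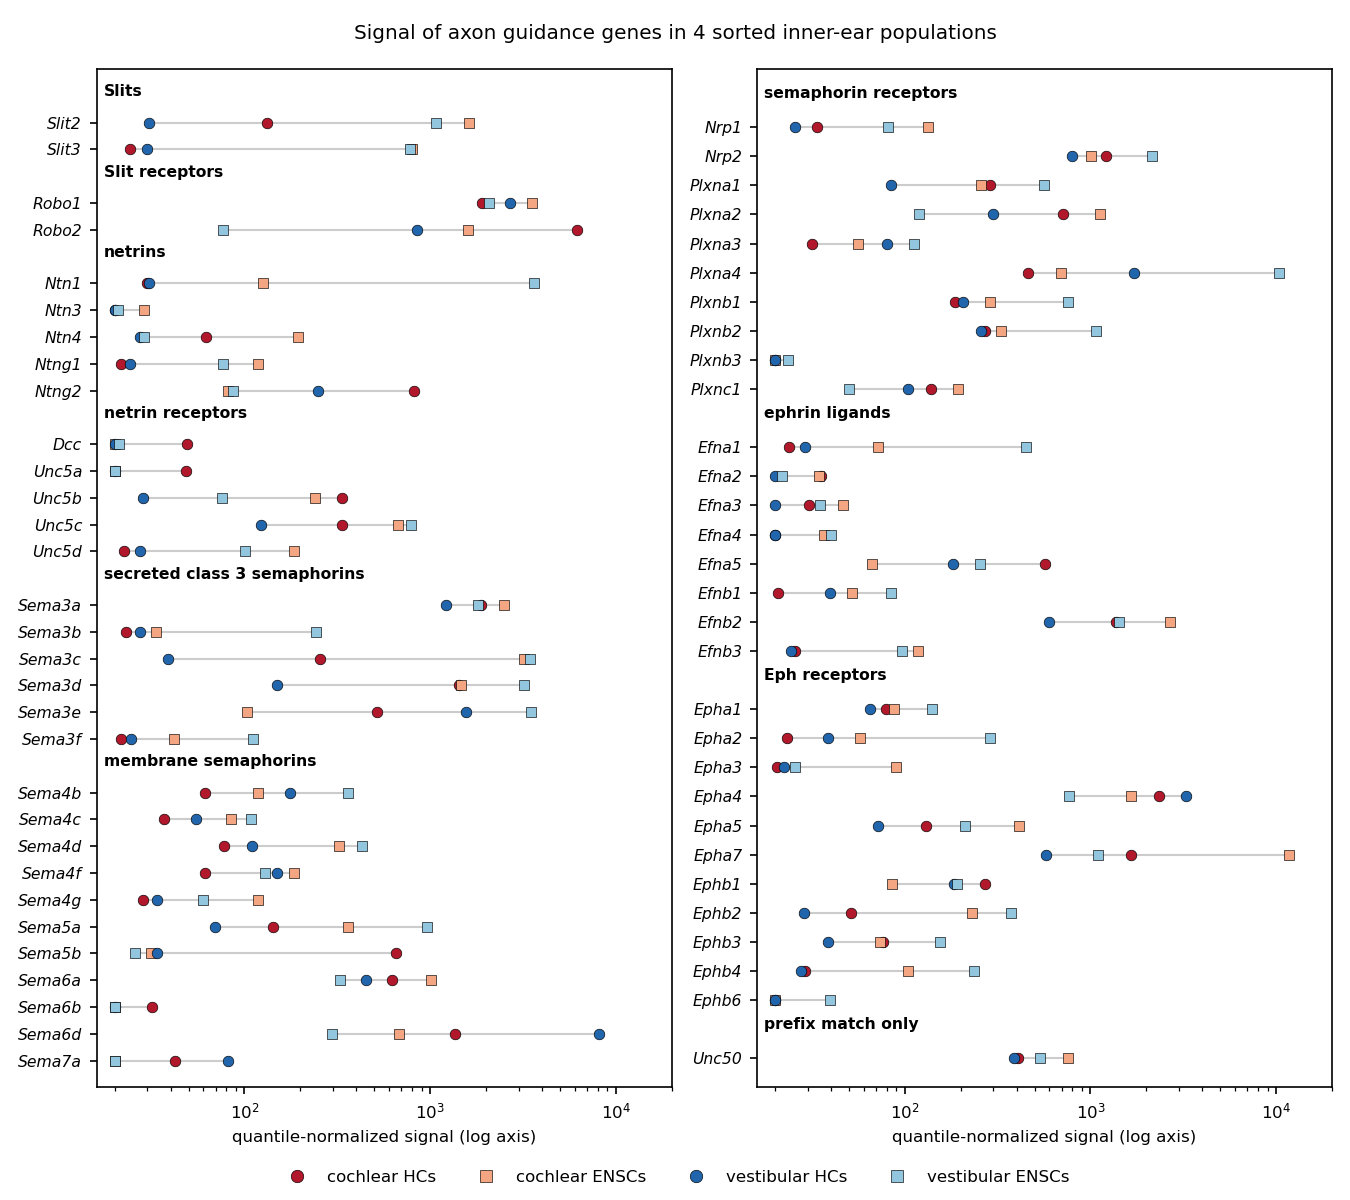
Signals of the 61 genes in the 4 libraries on a log axis, grouped by role, with circles for HCs, squares for ENSCs, red shades for the cochlea and blue shades for the vestibular system; grey lines join the lowest and the highest library of a gene. Squares lie to the right of circles for most genes, the clearest exceptions being *Robo2*, *Ntng2*, *Sema5b*, *Sema6d* and *Epha4*.

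Slits, secreted repellents that bind the Robo receptors, were ENSC genes in both organs. *Slit2* (ENSMUSG00000031558, chromosome 5, 48374394 to 48697521, mm9) had cochlear signals of 132.75 (HCs) and 1623.5 (ENSCs) and vestibular signals of 30.5 (HCs) and 1079.75 (ENSCs). Both ENSC libraries were far above both HC libraries, so that *Slit2* was 12.2-fold lower in cochlear HCs and at least 35.4-fold lower in vestibular HCs. *Slit3* (ENSMUSG00000056427, chromosome 11, 34934726 to 35522009) had 24.25 in cochlear HCs, 796 in cochlear ENSCs, 29.75 in vestibular HCs and 782.25 in vestibular ENSCs. Its ENSC signals were nearly equal in the organs and its HC signals were both inside a tied range, which put HCs at least 32.8-fold lower than ENSCs in the cochlea and at least 25.6-fold lower in the vestibular system. *Slit2* had some signal left in cochlear HCs and was at least 4.35-fold higher there than in vestibular HCs.

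The Slit receptors behaved otherwise. *Robo2* (ENSMUSG00000052516, chromosome 16, 73892551 to 74412070) had 6188.75 in the HCs and 1592 in the ENSCs of the cochlea, against 845 and 77 in those of the vestibular system. It was highest in cochlear HCs and lowest in vestibular ENSCs, and it was higher in HCs than in ENSCs within each organ (3.89-fold higher in the cochlea and 11-fold higher in the vestibular system) and higher in the cochlea than in the vestibular system within each cell type (7.32-fold higher for HCs and 20.7-fold higher for ENSCs). *Robo1* (chromosome 16, 72663394 to 73046340), which lies beside it on chromosome 16, had cochlear signals of 1911.75 (HCs) and 3518.25 (ENSCs) and vestibular signals of 2700.25 (HCs) and 2079.25 (ENSCs), all within -0.88 to 0.76 of each other on the log2 scale of the 4 contrasts. *Robo1* was thus present at a similar level in all populations, whereas *Robo2* was at least 3-fold apart in all 4 contrasts. In both ENSC libraries both Slits and both Robos were above the tied range, and in vestibular HCs both Slits were inside it and both Robos above it.

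Because *Robo2* was the only gene at least 3-fold higher in HCs of both organs, that 1 of its 3 listed promoters which holds a motif is shown, from 250 bases before to 50 after the start (RefSeq, GRCm38.p6, minus strand, chr16:74411776-74412075). Capitals mark CAGCTG, a palindromic form of the E-box that basic helix-loop-helix factors such as ATOH1 bind.
Robo2: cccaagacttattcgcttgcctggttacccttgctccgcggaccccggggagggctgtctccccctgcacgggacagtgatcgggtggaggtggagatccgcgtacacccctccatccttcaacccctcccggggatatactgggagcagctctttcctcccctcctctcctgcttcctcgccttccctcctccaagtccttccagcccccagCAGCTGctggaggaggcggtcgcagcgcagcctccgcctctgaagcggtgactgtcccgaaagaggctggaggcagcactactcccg
These letters occurred in 6 of the 64 promoters found for 52 of the guidance genes (9.38%) and in 16.3% of 32851 promoters of the same length. The match is a description of the sequence only.

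Among netrins, *Ntn1* showed the largest difference of all guidance genes in the signals as deposited. *Ntn1* (ENSMUSG00000020902, chromosome 11, 68022866 to 68214325), the secreted netrin that binds Dcc and the Unc5 receptors, had 30 in cochlear HCs, 125.5 in cochlear ENSCs, 30.5 in vestibular HCs and 3604.75 in vestibular ENSCs. It was high in vestibular ENSCs alone, at least 118-fold lower in vestibular HCs than in vestibular ENSCs and 28.7-fold lower in cochlear than in vestibular ENSCs. Both HC signals were inside or close to the tied range. Within the cochlea it was 4.18-fold lower in HCs, from much lower signals, and this difference fell under 3-fold with a floor of 50.

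The other netrins divided differently. *Ntng2* (chromosome 2, 29050061 to 29108525) encodes netrin-G2, which is anchored in the membrane by a lipid and binds the protein NGL-2 in place of Dcc. Its signals were 823 in the HCs and 81.25 in the ENSCs of the cochlea, against 249 and 87.25 in those of the vestibular system. HCs were above ENSCs in both organs, 10.1-fold higher in the cochlea and 2.85-fold higher in the vestibular system, and cochlear HCs were 3.31-fold higher than vestibular HCs. *Ntng1*, its close relative, went the other way, with cochlear signals of 21.75 (HCs) and 118.75 (ENSCs) and vestibular signals of 24.25 (HCs) and 76.25 (ENSCs), and cochlear HCs were at least 4.90-fold lower than their ENSCs. *Ntn4*, a netrin of basement membranes, was mostly a cochlear ENSC gene with 62.25 in cochlear HCs, 194 in cochlear ENSCs, 27.25 in vestibular HCs and 28.75 in vestibular ENSCs. It was 3.12-fold lower in cochlear HCs than in ENSCs and 6.75-fold higher in cochlear than in vestibular ENSCs. *Ntn3* did not exceed 28.75. The binding partners of the netrin-Gs, which are no members of the rule, were measured as well. *Lrrc4*, which encodes NGL-2, had 303 in the HCs and 103 in the ENSCs of the cochlea, against 190 and 226.5 in those of the vestibular system, and *Lrrc4c*, which encodes the netrin-G1 partner NGL-1, had cochlear signals of 79.75 (HCs) and 1157.5 (ENSCs) and vestibular signals of 227 (HCs) and 280.25 (ENSCs). *Lrrc4c* was thus highest in the population in which *Ntng1* was highest.

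Unc5 receptors mediate repulsion and Dcc mediates attraction. Of these netrin receptors *Unc5b*, *Unc5c* and *Unc5d* exceeded 100 in some population, and *Unc5a* and *Dcc* did not. These signals are not per kilobase and do not rank the receptors. *Dcc* reached 48.75 in cochlear HCs and *Unc5a* 48.5, with at most 21 for either elsewhere. *Unc5c* (chromosome 3, 141128528 to 141497888) had 334 in cochlear HCs, 670.25 in cochlear ENSCs, 123.25 in vestibular HCs and 791 in vestibular ENSCs. Its signal was lower in HCs of both organs, 2.01-fold lower in the cochlea and 6.42-fold lower in the vestibular system. *Unc5b* was past 3-fold between the organs and not between the cell types. With 333.25 in the HCs and 240 in the ENSCs of the cochlea, against 28.25 and 75.25 in those of the vestibular system, cochlear HCs were at least 10.9-fold higher than vestibular HCs and *Unc5b* was 3.19-fold higher in cochlear than in vestibular ENSCs. *Unc5d* had cochlear signals of 22.5 (HCs) and 184.25 (ENSCs) and vestibular signals of 27.25 (HCs) and 101.25 (ENSCs), so that HCs were at least 7.60-fold lower than ENSCs in the cochlea and at least 3.32-fold lower in the vestibular system. In vestibular HCs 4 of the 5 netrin receptors were inside the tied range, against 24 of the 61 guidance genes and 2695 of all 12814 genes. Neogenin (*Neo1*), which binds netrins and the RGM proteins and is no member of the rule, had 689.75 in cochlear HCs, 1876.5 in cochlear ENSCs, 717 in vestibular HCs and 3575.5 in vestibular ENSCs, with log2 ratios of HC to ENSC signal of -1.44 (cochlea) and -2.32 (vestibular system).

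The secreted class 3 semaphorins bind neuropilins, except for Sema3E, which binds plexin-D1 directly. Of 6 such genes *Sema3c* was the most divided between cell types. *Sema3c* (ENSMUSG00000028780, chromosome 5, 17080099 to 17236086) had 255.5 in the HCs and 3204.5 in the ENSCs of the cochlea, against 38.75 and 3444.75 in those of the vestibular system. Both ENSC libraries exceeded both HC libraries by a wide margin, which made it 12.5-fold lower in cochlear HCs and 88.9-fold lower in vestibular HCs, and cochlear HCs were 6.59-fold higher than vestibular HCs. *Sema3d* (chromosome 5, 12383166 to 12588943) had cochlear signals of 1422.5 (HCs) and 1469 (ENSCs) and vestibular signals of 149.5 (HCs) and 3212 (ENSCs). HC and ENSC signals were nearly equal in the cochlea, whereas in the vestibular system *Sema3d* was 21.5-fold lower in HCs than in ENSCs. Vestibular HCs were the population with the least signal. Cochlear HCs were 9.52-fold higher than vestibular HCs.

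*Sema3e* (chromosome 5, 14025276 to 14256689) had 515.25 in cochlear HCs, 103.75 in cochlear ENSCs, 1562.5 in vestibular HCs and 3505.75 in vestibular ENSCs. In the cochlea it was 4.97-fold higher in HCs than in ENSCs, in the vestibular system 2.24-fold lower, and both vestibular libraries were above the cochlear library of the same cell type (3.03-fold lower in cochlear than in vestibular HCs, and 33.8-fold lower in cochlear than in vestibular ENSCs). Cochlear ENSCs were the population with the least *Sema3e*. *Sema3a* (chromosome 5, 13125593 to 13602565), the founding member of the class, had 1882.5 in the HCs and 2500.25 in the ENSCs of the cochlea, against 1224 and 1808 in those of the vestibular system, and was within 1.54-fold in each of the 4 contrasts. These 4 genes lie in a stretch of 4.85 Mb on chromosome 5 in the order *Sema3d*, *Sema3a*, *Sema3e* and *Sema3c*, with 3 other genes of the table between them, and they gave 4 different patterns. *Sema3b* and *Sema3f*, neighbours on chromosome 9 at a distance of 72.3 kb, were low in 3 populations and higher in vestibular ENSCs. *Sema3b* had cochlear signals of 23 (HCs) and 33.25 (ENSCs) and vestibular signals of 27.5 (HCs) and 244.25 (ENSCs), and *Sema3f* had 21.75 in cochlear HCs, 41.5 in cochlear ENSCs, 24.5 in vestibular HCs and 111 in vestibular ENSCs. In vestibular HCs they were at least 8.01-fold lower and at least 3.64-fold lower, respectively, and *Sema3f* was under 3-fold after correction for length and GC content.

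The membrane-bound semaphorins included an HC gene of each organ. *Sema6d* (ENSMUSG00000027200, chromosome 2, 123915705 to 124493506), a transmembrane ligand of A-type plexins, had 1356 in the HCs and 681.75 in the ENSCs of the cochlea, against 8140 and 295.5 in those of the vestibular system. Vestibular HCs stood apart from the other 3 populations, being 27.5-fold higher than vestibular ENSCs, whereas cochlear HCs were 1.99-fold higher than cochlear ENSCs and 6.00-fold lower than vestibular HCs. *Sema5b* (ENSMUSG00000052133, chromosome 16, 35541231 to 35664818), a transmembrane semaphorin with thrombospondin repeats, was the counterpart in the cochlea. It had cochlear signals of 651.25 (HCs) and 31.25 (ENSCs) and vestibular signals of 34 (HCs) and 25.75 (ENSCs), so that it was 20.8-fold higher in cochlear HCs than in cochlear ENSCs and 19.2-fold higher than in vestibular HCs. No population other than cochlear HCs had more than 34. Its relative *Sema5a* was lower in HCs of both organs, with 142 in cochlear HCs, 359.5 in cochlear ENSCs, 69.25 in vestibular HCs and 959.75 in vestibular ENSCs. It was 2.53-fold lower in cochlear HCs and 13.9-fold lower in vestibular HCs. *Sema6a* had 621.25 in the HCs and 1016.25 in the ENSCs of the cochlea, against 452 and 325.5 in those of the vestibular system, and was 3.12-fold higher in cochlear than in vestibular ENSCs, with log2 ratios of HCs to ENSCs of -0.71 (cochlea) and 0.47 (vestibular system).

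*Sema7a*, which is anchored by a lipid and binds integrins and plexin-C1, was above the floor in HCs only. It had cochlear signals of 42.5 (HCs) and 20 (ENSCs) and vestibular signals of 81.75 (HCs) and 20 (ENSCs), both ENSC libraries being at the floor, and was at least 4.09-fold higher in vestibular HCs. At these low signals the difference was under 3-fold with a floor of 50. Beside *Robo2*, CAGCTG was found in promoters of *Sema7a*, *Sema4d*, *Sema4g*, *Ephb3* and *Plxnb3*. By 3-fold or more *Sema4d* was lower in HCs of both organs, *Sema4g* in cochlear HCs and *Ephb3* in vestibular HCs. *Plxnb3* was at or near the floor. The *Sema7a* promoter is shown because only *Sema7a* and *Robo2* among these had more signal in HCs of both organs (capitals mark CAGCTG, RefSeq, GRCm38.p6, plus strand, chr9:57939862-57940161).
Sema7a: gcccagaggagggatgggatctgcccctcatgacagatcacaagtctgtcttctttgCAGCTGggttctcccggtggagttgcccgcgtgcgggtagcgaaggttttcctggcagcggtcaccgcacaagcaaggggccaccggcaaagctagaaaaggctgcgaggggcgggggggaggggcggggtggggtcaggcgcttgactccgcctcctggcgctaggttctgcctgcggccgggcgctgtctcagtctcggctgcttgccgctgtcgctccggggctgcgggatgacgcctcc
Class 4 semaphorins are transmembrane proteins, and none of the 5 measured was 3-fold higher in HCs. Over all genes 8.39% (cochlea) and 13.8% (vestibular system) were, so that none among 5 genes lies near the background. *Sema4d*, the ligand of plexin-B1, had 77.5 in cochlear HCs, 324.5 in cochlear ENSCs, 109.75 in vestibular HCs and 428.25 in vestibular ENSCs, which was 4.19-fold lower in cochlear HCs and 3.90-fold lower in vestibular HCs. The vestibular log2 ratio of *Sema4d* went from -1.96 to -1.35, under 3-fold, after correction for length and GC content. *Sema4g* had 28.25 in the HCs and 117.75 in the ENSCs of the cochlea, against 33.75 and 60 in those of the vestibular system, and was 4.17-fold lower in cochlear HCs. *Sema4f* had cochlear signals of 61.25 (HCs) and 184.25 (ENSCs) and vestibular signals of 148.75 (HCs) and 128.25 (ENSCs), at the limit in the cochlea (3.01-fold lower in HCs) and 1.16-fold higher in vestibular HCs. *Sema4b* was more a matter of organ than of cell type, with 61.5 in cochlear HCs, 118.75 in cochlear ENSCs, 175.75 in vestibular HCs and 362.25 in vestibular ENSCs, and was 3.05-fold lower in cochlear than in vestibular ENSCs. *Sema4c* and *Sema6b* were within 3-fold in every contrast, with at most 108 and 31.75.

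Of the 10 semaphorin receptors none was 3-fold higher in HCs in either organ, and 5 were at least 3-fold lower in vestibular HCs. Over all genes 8.39% (cochlea) and 13.8% (vestibular system) were higher and 14.3% were lower in vestibular HCs, so that among 10 genes about 1 higher gene in each organ would match the background. *Plxna4* (ENSMUSG00000029765, chromosome 6, 32094565 to 32538192), a plexin that receives both class 3 and class 6 semaphorins, had 458.75 in the HCs and 697.75 in the ENSCs of the cochlea, against 1718.75 and 10316.75 in those of the vestibular system. Both vestibular libraries were above both cochlear libraries, and within the vestibular system HCs were 6.00-fold lower than ENSCs. Cochlear ENSCs were 14.8-fold lower than vestibular ENSCs. *Plxna2* (chromosome 1, 196446023 to 196643063) had the opposite order of organs, with cochlear signals of 713.25 (HCs) and 1130.75 (ENSCs) and vestibular signals of 299.5 (HCs) and 119.5 (ENSCs). It was 9.46-fold higher in cochlear than in vestibular ENSCs. *Plxna1*, a receptor of Sema6D, had 286.25 in cochlear HCs, 257.25 in cochlear ENSCs, 84.25 in vestibular HCs and 559.75 in vestibular ENSCs. In vestibular HCs *Plxna1* was 6.64-fold lower than in vestibular ENSCs and lowest of all populations. *Plxnc1*, the receptor of Sema7A, had 137.75 in the HCs and 192.5 in the ENSCs of the cochlea, against 103.75 and 50.25 in those of the vestibular system, and was 3.83-fold higher in cochlear than in vestibular ENSCs. *Plxna3* was within 3-fold throughout, between 31.5 and 111.75, and *Plxnb3* was at or near the floor.

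The B-type plexins *Plxnb1* and *Plxnb2*, receptors of class 4 semaphorins, were similar in 3 populations and higher in vestibular ENSCs. *Plxnb2* had cochlear signals of 270.5 (HCs) and 328.75 (ENSCs) and vestibular signals of 257.25 (HCs) and 1066 (ENSCs), and *Plxnb1* (chromosome 9, 108997950 to 109022425) had 187.25 in cochlear HCs, 287.25 in cochlear ENSCs, 206.75 in vestibular HCs and 752.5 in vestibular ENSCs. They were 4.14-fold lower and 3.64-fold lower, respectively, in vestibular HCs, and neither difference reached 3-fold after correction for length and GC content (log2 ratios -1.05 and -0.90). Among the 52 guidance genes with a promoter sequence *Plxnb1* was the only one that held an X-box, the site of the RFX factors that the study examined as regulators of HC genes. The X-box was searched as GTTGCC followed after 2 bases by GGCAAC, a palindrome, with up to 2 mismatches in these 12 letters. It occurred in 1 of the 64 guidance gene promoters (1.56%) and in 2.85% of all promoters. Capitals mark the match (RefSeq, GRCm38.p6, plus strand, chr9:109095186-109095485).
Plxnb1: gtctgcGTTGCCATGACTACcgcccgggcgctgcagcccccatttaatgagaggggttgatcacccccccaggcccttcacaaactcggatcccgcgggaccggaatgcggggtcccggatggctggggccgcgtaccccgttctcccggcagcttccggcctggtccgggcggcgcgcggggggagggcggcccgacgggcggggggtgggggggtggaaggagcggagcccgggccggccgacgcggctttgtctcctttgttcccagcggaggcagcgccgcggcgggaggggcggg
The neuropilins, the co-receptors of class 3 semaphorins, were unlike each other. *Nrp2* (chromosome 1, 62749859 to 62865269) had 1207.25 in the HCs and 1008.25 in the ENSCs of the cochlea, against 793.75 and 2132.5 in those of the vestibular system, high everywhere and within 3-fold in each contrast. *Nrp1* (chromosome 8, 130882973 to 131029362) had cochlear signals of 33.75 (HCs) and 133 (ENSCs) and vestibular signals of 25.5 (HCs) and 81.5 (ENSCs), low everywhere and lowest in HCs, where it was 3.94-fold lower in the cochlea and at least 2.67-fold lower in the vestibular system. With the tied range set to its top the vestibular difference was no longer past 3-fold.

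Ephrins of class A are anchored by a lipid, and those of class B cross the membrane and can themselves signal into their cell. *Efnb2* (chromosome 8, 8617434 to 8661239) had 1368.25 in cochlear HCs, 2673.5 in cochlear ENSCs, 595 in vestibular HCs and 1417.25 in vestibular ENSCs. It was present in every population and lower in HCs of both organs by less than 3-fold (1.95-fold lower in the cochlea and 2.38-fold lower in the vestibular system). *Efna5* (ENSMUSG00000048915, chromosome 17, 62953533 to 63230666) had 570.25 in the HCs and 66.25 in the ENSCs of the cochlea, against 181.25 and 254 in those of the vestibular system. It was 8.61-fold higher in cochlear HCs than in cochlear ENSCs and 1.40-fold lower in vestibular HCs than in vestibular ENSCs, and cochlear HCs were 3.15-fold higher than vestibular HCs. Cochlear HCs and cochlear ENSCs were thus the populations with the most and the least *Efna5*. *Efna1* (chromosome 3, 89075655 to 89085064) had cochlear signals of 23.75 (HCs) and 71.75 (ENSCs) and vestibular signals of 29 (HCs) and 449.25 (ENSCs). This was chiefly a vestibular ENSC gene, at least 14.7-fold lower in vestibular HCs and 6.26-fold lower in cochlear than in vestibular ENSCs, and its cochlear difference (at least 2.96-fold lower in HCs) was under 3-fold with the tied range set to its top and after correction for length and GC content. *Efnb3* was lower in HCs in both organs, with 25.75 in cochlear HCs, 117.75 in cochlear ENSCs, 24.25 in vestibular HCs and 97 in vestibular ENSCs. These signals are low, and with a floor of 50 both differences were under 3-fold (cochlear and vestibular log2 ratios of -1.24 and -0.96), as was the vestibular one with a pseudocount of 20 (-1.40) and after correction for length and GC content (-0.86). The neighbours of *Efna1* on chromosome 3, *Efna3* and *Efna4*, did not exceed 46.75 and 40.25. *Efna2* did not exceed 35.5 and *Efnb1* 84, all without a 3-fold difference.

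Among the 11 Eph receptors, the kinases that bind ephrins, the A-type receptors *Epha4* and *Epha7* had the highest signals per kilobase in all 4 populations. *Epha4* (ENSMUSG00000026235, chromosome 1, 77363760 to 77511663), which binds ephrins of both classes, had 2344.25 in the HCs and 1647.75 in the ENSCs of the cochlea, against 3266 and 763.5 in those of the vestibular system. HCs were above ENSCs in both organs, by 0.51 on the log2 scale in the cochlea and by 2.10 (4.28-fold higher) in the vestibular system. *Epha7* (ENSMUSG00000028289, chromosome 4, 28740281 to 28894649), a receptor of ephrin-As, had cochlear signals of 1646.25 (HCs) and 11670.25 (ENSCs) and vestibular signals of 574.25 (HCs) and 1102.5 (ENSCs). The cochlear ENSC library stood far above the rest, so that *Epha7* was 7.09-fold lower in cochlear HCs and 10.6-fold higher in cochlear than in vestibular ENSCs. Cochlear ENSCs, the population richest in *Epha7*, were the one with the least *Efna5*. The other ephrin-As differed from *Efna5* in this. *Efna3* was highest in cochlear ENSCs (46.75), and *Efna1*, *Efna2* and *Efna4* had their second highest signal there. *Epha5* had 129.75 in cochlear HCs, 414.25 in cochlear ENSCs, 71.75 in vestibular HCs and 212.25 in vestibular ENSCs, and was 3.19-fold lower in cochlear HCs, and 2.96-fold lower in vestibular HCs. *Epha2* was a vestibular ENSC gene with 23.25 in the HCs and 57.25 in the ENSCs of the cochlea, against 38.75 and 287.25 in those of the vestibular system, and was 7.41-fold lower in vestibular HCs. *Epha3* reached 90.25 in cochlear ENSCs and at most 25.75 elsewhere, and *Epha1* was within 3-fold in each contrast.

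The B-type receptors included 1 gene of cochlear HCs and several of ENSCs. *Ephb1* (chromosome 9, 101824458 to 102257023) had cochlear signals of 269.75 (HCs) and 85.75 (ENSCs) and vestibular signals of 185.25 (HCs) and 190 (ENSCs). It was 3.15-fold higher in cochlear HCs and nearly equal in the vestibular populations. *Ephb2* (chromosome 4, 136203454 to 136391903), the loss of which leaves mice with a vestibular deficit, had 51.5 in cochlear HCs, 229.25 in cochlear ENSCs, 28.75 in vestibular HCs and 372.5 in vestibular ENSCs. ENSCs were above HCs in both organs, and it was 4.45-fold lower in cochlear HCs and at least 12.2-fold lower in vestibular HCs. *Ephb4* followed the same pattern, with 29 in the HCs and 103.75 in the ENSCs of the cochlea, against 27.5 and 237 in those of the vestibular system, and was 3.58-fold lower in cochlear and at least 7.77-fold lower in vestibular HCs. *Ephb3* had cochlear signals of 76.25 (HCs) and 73.25 (ENSCs) and vestibular signals of 38.75 (HCs) and 155 (ENSCs), and was 4.0-fold lower in vestibular HCs, a difference that was under 3-fold after correction for length and GC content. *Ephb6*, which lacks kinase activity, was at the floor in 3 libraries.

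The direct comparison of the HC libraries asked which guidance genes separate the HCs of the organs. Cochlear HCs were at least 3-fold higher for 9 of the 61 genes (14.8%, against 4.21% of all genes) and lower for 3 (4.92%, against 5.09% of all genes). The 9 genes were *Sema5b*, *Unc5b*, *Sema3d*, *Robo2*, *Sema3c*, *Slit2*, *Plxna1*, *Ntng2* and *Efna5*, and the 3 genes *Sema6d*, *Plxna4* and *Sema3e*, with the signals given above. None of the 11 Eph receptors was 3-fold apart between the HC libraries. For 11 genes this lies near the background, as 4.21% of all genes were higher and 5.09% lower in cochlear HCs. The ENSC libraries differed by 3-fold or more for 8 genes higher in the cochlea (13.1%, against 7.80% of all genes) and 9 genes lower there (14.8%, against 7.94% of all genes). The cochlear genes were *Robo2*, *Epha7*, *Plxna2*, *Ntn4*, *Plxnc1*, *Epha3*, *Unc5b* and *Sema6a*. The vestibular genes were *Sema3e*, *Ntn1*, *Plxna4*, *Sema3b*, *Efna1*, *Epha2*, *Efna5*, *Plxnb2* and *Sema4b*. These contrasts share their libraries with those of HCs to ENSCs.

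Levels of different genes can be compared only per kilobase, and 20 guidance genes reached 100 per kilobase of exon in at least 1 population. In cochlear HCs the highest were *Robo2* (375 per kilobase), *Epha4* (370.5) and *Efnb2* (286). In cochlear ENSCs *Epha7* led with 1181 per kilobase, ahead of *Efnb2* (558) and *Sema3c* (449). Vestibular HCs had *Sema6d* at 771 per kilobase, then *Epha4* (516) and *Robo1* (283). Vestibular ENSCs had *Plxna4* at 820.1 per kilobase, then *Ntn1* (574), *Sema3c* (482), *Sema3d* (463) and *Sema3e* (462). A different gene thus led in each population, a receptor in 3 of them and the ligand *Sema6d* in vestibular HCs.

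**Figure D4:**
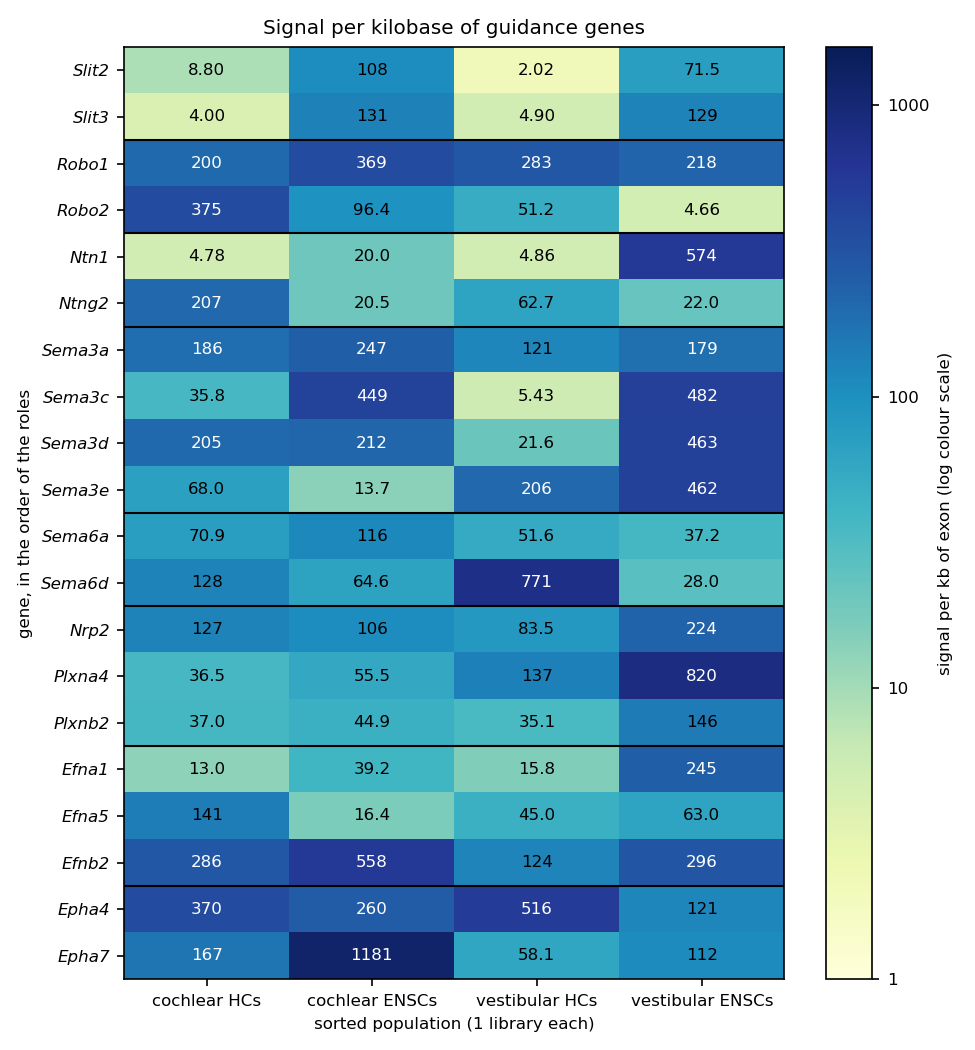
Signal per kilobase of exon (printed in each cell, colour on a log scale) of the 20 guidance genes that reached 100 per kilobase in at least 1 population, in the order Slits, Robos, netrins, class 3 semaphorins, membrane semaphorins, semaphorin receptors, ephrins and Eph receptors, separated by lines. The leading genes are *Robo2* in cochlear HCs (375), *Epha7* in cochlear ENSCs (1181), *Sema6d* in vestibular HCs (771) and *Plxna4* in vestibular ENSCs (820.1).

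Other genes of guidance signalling were taken from a list of the pathway. Of 16 further receptors, cofactors and ligands 2 were higher and 3 lower by 3-fold or more in cochlear HCs, where 8.39% and 9.20% of all genes were, and 2 were higher and 5 lower in vestibular HCs, where 13.8% and 14.3% of all genes were. The higher genes were the adhesion molecules *Nrcam* (2713.5 in cochlear HCs, 596.25 in cochlear ENSCs, 1296.75 in vestibular HCs and 374.5 in vestibular ENSCs) and *Dscaml1* (122 in the HCs and 20.5 in the ENSCs of the cochlea, against 111.75 and 20 in those of the vestibular system). Lower in HCs of both organs was *Rgma*, a ligand of neogenin, with cochlear signals of 89 (HCs) and 843.25 (ENSCs) and vestibular signals of 99 (HCs) and 557.5 (ENSCs). After correction for length and GC content the vestibular log2 ratio of *Rgma* went from -2.49 to -1.18 and that of *Nrcam* from 1.79 to 1.49, both then under 3-fold. *Cntn1*, an adhesion molecule of axons, was far lower in cochlear HCs and differed less in the vestibular system, with 180.75 in cochlear HCs, 8676.25 in cochlear ENSCs, 2204.75 in vestibular HCs and 4473.25 in vestibular ENSCs. Its vestibular log2 ratio of -1.02 came to -1.62, just past 3-fold, after the same correction. The cytoplasmic effectors, 36 rows for 35 genes, showed 5 higher and 4 lower in cochlear HCs and 3 higher and 6 lower in vestibular HCs, numbers that lie near or below those shares of all genes except for the 5 higher in cochlear HCs. *Pak3*, a kinase downstream of Rac, was higher in HCs of both organs. Its signals were 21040.5 in the HCs and 1951.25 in the ENSCs of the cochlea, against 25000 and 651.75 in those of the vestibular system. *Crmp1*, a mediator of semaphorin signalling, was also higher in HCs of both organs, with cochlear signals of 384 (HCs) and 22.25 (ENSCs) and vestibular signals of 112 (HCs) and 20 (ENSCs). *Dpysl3*, of the same family, was higher in HCs of the cochlea and lower in HCs of the vestibular system, with 3581.75 in cochlear HCs, 588 in cochlear ENSCs, 248 in vestibular HCs and 2179 in vestibular ENSCs.

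The ratios that involve the vestibular ENSC library went with base composition. Over all genes above the floor in both libraries the log2 ratio of HC to ENSC signal fell with exonic GC content in the vestibular system (Spearman's rho = -0.395, n = 10365 genes of 2 libraries) and hardly in the cochlea (rho = -0.0400, n = 10735). The ratio of cochlear to vestibular ENSCs fell with it most (rho = -0.453, n = 10483) and that of cochlear to vestibular HCs hardly at all (rho = 0.0215, n = 10861). The guidance genes had a higher GC content (median 54.3%) than all genes (48.8%). After correction for trends on exonic length and GC content 20 guidance genes were at least 3-fold lower in vestibular HCs, 17 of them among the 23 found without correction, against 10.03% of all genes under the same correction, and 5 were higher, against 14.7%. In the cochlea 15 were lower, against 8.65% of all genes, and 6 higher, against 8.74%. Of the differences of the 61 genes, those no longer past 3-fold after correction were *Efna1*, *Ntn4* and *Sema4f* in the cochlea, *Efnb3*, *Ephb3*, *Plxnb1*, *Plxnb2*, *Sema3f* and *Sema4d* in the vestibular system, and *Epha3*, *Plxnb2*, *Sema4b* and *Sema6a* between the ENSC libraries. Those that came past it, beside *Ntng2*, were *Epha5*, *Epha7* and *Sema3e* (lower in vestibular HCs), *Sema3d* and *Sema5a* (lower in cochlear ENSCs), *Sema4g* (higher in cochlear ENSCs) and *Sema4b* (lower in cochlear HCs than in vestibular HCs). The vestibular median log2 ratio of the 61 genes moved from -1.04 to -0.77, and the number of genes below 0 from 48 to 36. Between the ENSC libraries the median moved from -0.07 to 0.35. GC-poor genes such as *Sema3c* (GC content 40.9%, vestibular log2 ratio -6.47, -7.15 after correction) and *Slit2* (42.9%, -5.15 and -5.76) moved further from 0, GC-rich genes such as *Ntn1* (58.9%, -6.88 and -5.72) moved towards it, and *Ntng2* (57.4%, 1.51 and 2.57) came past 3-fold in HCs of both organs.

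**Figure D5:**
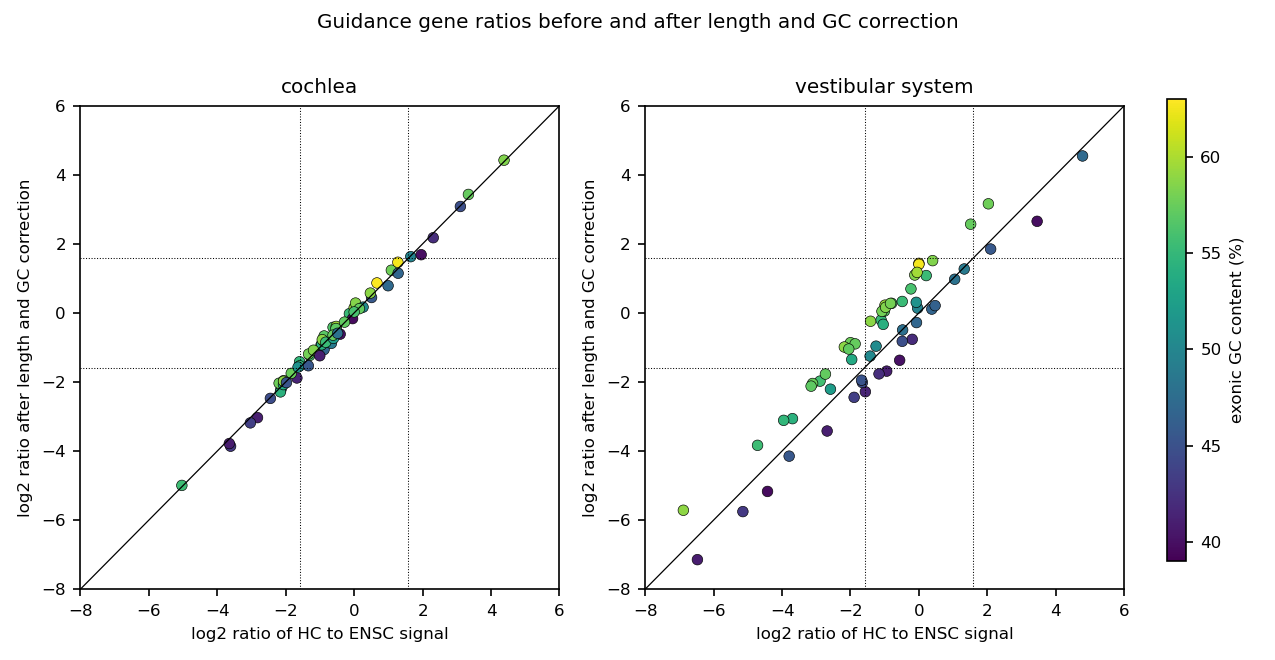
Log2 ratio of HC to ENSC signal of the 61 guidance genes as deposited (horizontal) and after correction for exonic length and GC content (vertical), in the cochlea (left) and the vestibular system (right), coloured by GC content; the diagonal marks no change and dotted lines 3-fold. Points stay close to the diagonal in the cochlea, whereas in the vestibular system GC-rich genes lie above it and GC-poor genes below, and *Ntn1* moves from -6.88 to -5.72.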

How the data were processed

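RNA of 4 sorted populations (cochlear and vestibular HCs and ENSCs) was measured, with 1 column each, after amplification with the NuGEN Ovation system. The authors deposited a quantile-normalized signal per gene with a floor of 20. They had mapped the first 50 nt of each read to mm9 (TopHat) and assigned reads to ENSEMBL genes (HTSeq), per the methods and the labels. Tool versions, annotation release and strandedness are not given in the sources used here. The normalization removes differences in depth and in total RNA. Groups came from the source names, and a non-HC column was matched to the ENSC sample of its organ.

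From these values log2 ratios without a pseudocount were computed (Python 3.11.15, numpy 2.4.6, pandas 2.3.3), and ratios of at least 3-fold were counted. With 1 column per population no p-value or error can be given. Positions, exonic length and GC content came from the NCBIM37 (mm9) annotation, which matched all 61 genes. The end of a tied range was taken where the median of the genes' highest signal elsewhere, having risen at least 10-fold, fell below 0.25 of its previous value. Trends on length and GC content were removed by lowess (span 0.3, 2 robust iterations, statsmodels 0.14.6). Promoter sequences are those of RefSeq on GRCm38.p6, from 250 bases before to 50 after the start. The functions were tested on simulated data.

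Signals in the 4 libraries are given for genes past 3-fold in at least 1 contrast with a signal of 100 in the higher library, and for *Neo1*. Others were named to complete a family, and those of them with 4 signals (*Robo1*, *Sema3a*, *Sema7a*, *Nrp2*, *Efnb2* and genes of the pathway lists) were picked with their values in view. The members, lists, rule for naming and alternatives (a floor of 50, a pseudocount of 20, a minimum of 100, tied ranges set to their top, centring, length and GC correction, a 2-fold threshold) were chosen with earlier results of these data known.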

Additional observations from a re-analysis of the deposited data

Results flagged for a closer look

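For 6 guidance genes HCs and ENSCs were at least 3-fold apart in 1 organ and the HC to ENSC ratio had the opposite sign in the other organ. They were 9.84% of the guidance genes, and 6.42% of all genes met the same criterion. The differences, vestibular minus cochlear log2 ratio, were -3.59 for *Efna5*, -3.48 for *Sema3e*, -2.89 for *Plxna1*, -2.06 for *Ephb3*, -1.69 for *Ephb1* and 1.80 for *Sema4f*. The cochlear and vestibular log2 ratios were 3.11 and -0.49 for *Efna5*, and 2.31 and -1.17 for *Sema3e*. For *Sema4f*, lower in cochlear HCs, they were -1.59 and 0.21. The cochlear ratios of *Ephb3* (0.06) and *Plxna1* (0.15) were close to 0. The sign of *Ephb1* in the vestibular system rested on a log2 ratio of -0.037, which was 0.028 with ratios centred on their median and 0.14 after correction for length and GC content. Under 3-fold after that correction were *Ephb3* (-0.90) and *Sema4f* (-1.53), and with a pseudocount of 20 *Ephb1* (1.45), *Ephb3* (-1.57) and *Sema4f* (-1.33). *Unc5b*, *Nrp2* and *Plxna2* also had ratios of opposite sign, with differences of -1.89, -1.69 and 1.99, but were under 3-fold in either organ. With 1 library for each population these differences were not tested. A ratio of opposite sign of any size was found for 14 of the 61 genes (23.0%) and for 27.0% of all genes.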

How the results depend on the processing

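Among the counts of genes past 3-fold, the number lower in cochlear HCs than in cochlear ENSCs was 18 as reported, 10 with a floor of 50 and 9 with a pseudocount of 20, and the number higher in cochlear than in vestibular ENSCs was 8 as reported and 5 with that pseudocount. The share of all genes fell as well, from 9.20% to 6.29% and 6.20% in the former contrast and from 7.80% to 5.12% in the latter. A 2-fold threshold gave 17 genes in place of 9 higher and 6 in place of 3 lower in cochlear than in vestibular HCs, 7 in place of 4 higher in vestibular HCs than in vestibular ENSCs, and 18 in place of 9 lower in cochlear than in vestibular ENSCs. At 2-fold the shares of all genes were 10.5%, 10.5%, 23.5% and 17.3% in that order, so that the 6 genes (9.84%) lay at the background. The other counts of these contrasts stayed within 1.5 times under these alternatives, the minimum of 100, tied ranges set to their top, centring and the correction for length and GC content. Of the 244 log2 ratios of single genes none that was past 3-fold changed sign. Fewer than 3-fold became 24 of them with the pseudocount, 16 with the floor of 50, 13 after the correction and 3 with the tied ranges at their top, and 8 came past 3-fold after the correction. The floor and the pseudocount shrink ratios by construction, and what causes the dependence on GC content was not tested. No paired analysis was possible because each population has 1 column and the labels carry no replicate numbers. For the same reason no library could be left out, and the depth behind a low signal is unknown.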
